A study of Homo sapiens with 4 samples.

Results

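The genes described here encode 8 proteins that pass on a death signal from receptors at the cell surface or hold it back: the initiator caspases CASP8, CASP10 and CASP9, the executioner caspase CASP6, the adaptor FADD, the caspase-8 regulator CFLAR (c-FLIP) and the inhibitor-of-apoptosis proteins BIRC2 (cIAP1) and BIRC3 (cIAP2). They were taken by gene symbol from 55764 gene names in the deposited expression table, and all 8 were found. Bulk RNA was sequenced from TE5, a cell line derived from a squamous cell carcinoma of the human oesophagus. Of the 4 libraries, 2 came from cells that stably carried a vector expressing ETS1, an ETS-family transcription factor, from a CMV promoter (labelled ETS1 Overexpression), and 2 came from cells carrying the empty backbone (labelled WT). Both groups had been infected with lentivirus in the presence of Polybrene and selected, and the sources do not say whether the 2 libraries of a group are separate infections, cultures or clones, so p-values measure only the spread between these libraries. The measured unit was FPKM, read fragments scaled by gene length and library depth. Levels set between genes depend on the gene lengths used.

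As background, ligand-bound death receptors such as FAS and the TRAIL receptors recruit FADD through its death domain. FADD then gathers procaspase-8 and procaspase-10 through death effector domains, and their activation by proximity starts the caspase cascade. CFLAR resembles these caspases but lacks their catalytic cysteine, and at the receptor it limits or shapes caspase-8 activation. CASP9 is the initiator of the mitochondrial route, activated on APAF1, while CASP6 is one of the caspases activated downstream. BIRC2 and BIRC3 are ubiquitin ligases that keep RIPK1 and TRAF2 complexes in a survival state and restrain the kinase NIK (MAP3K14), and BIRC3 is a well-known NF-kappaB target.

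In bulk RNA, fewer cells expressing a gene and less of its RNA per cell cannot be told apart. The libraries held between 40069285 and 56792407 recovered reads, and the ETS1 libraries were deeper by a factor of 1.35. The overexpressed gene itself stood at 0.491 and 0.509 FPKM in the controls and at 1.84 and 1.87 FPKM in the ETS1 libraries, so the labels and the ETS1 level went the same way. Of 5 squamous markers none reached 1 FPKM in any library (highest 0.0935), whereas the 4 epithelial markers (EPCAM, KRT8, KRT18 and CDH1) all did in at least 1 library. CDH1 did so only in ETS1 replicate 1, at 1.08 FPKM. KRT8 and CDH1 were higher in both ETS1 libraries than in the controls, and KRT18 and EPCAM were lower. The summed level of 4 leukocyte markers was 0.560 and 0.564 FPKM in the controls and 0.467 and 0.563 FPKM in the ETS1 libraries, with PTPRC and CD3E near 0. The summed level of 4 fibroblast markers was 2.10 and 2.27 FPKM in the controls and 2.92 and 3.05 FPKM in the ETS1 libraries. COL1A1 made up nearly all of it. COL3A1 and PDGFRB, like COL1A1, were higher in both ETS1 libraries, at most at 0.117 and 0.0570 FPKM. DCN was lower, at 0.0122 and 0.00280 FPKM in the controls and at 0 in the ETS1 libraries. The part of these marker differences in the results was not tested.

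Promoter windows of CASP8, BIRC2 and BIRC3 are shown first, so that the letters can be set beside the values. From RefSeq (GRCh38.p14), 14 promoter windows of 7 of the 8 genes were used here, and none of CASP10. Each printed window is the 250 bases before a transcription start, on the plus strand, 5′ to 3′. Capitals mark a match to CAGGAAGT or CCGGAA, forms of the site bound by ETS proteins, or to the NF-kappaB motif, on either strand. The first 2 windows are from CASP8, the tested member with the largest change, and begin at different starts of that gene. The other 2 belong to BIRC2 and BIRC3, neighbouring paralogs with very different levels.
CASP8, chr2:201233213-201233462: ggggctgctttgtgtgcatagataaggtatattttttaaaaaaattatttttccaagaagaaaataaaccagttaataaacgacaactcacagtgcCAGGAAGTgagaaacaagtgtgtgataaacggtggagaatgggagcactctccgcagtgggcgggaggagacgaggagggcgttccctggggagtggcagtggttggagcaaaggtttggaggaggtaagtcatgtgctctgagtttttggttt
CASP8, chr2:201260286-201260535: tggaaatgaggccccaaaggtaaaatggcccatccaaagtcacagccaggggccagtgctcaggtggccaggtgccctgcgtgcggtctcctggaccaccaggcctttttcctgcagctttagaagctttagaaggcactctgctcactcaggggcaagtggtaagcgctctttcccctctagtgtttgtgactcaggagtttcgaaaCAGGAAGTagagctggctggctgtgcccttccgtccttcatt
BIRC2, chr11:102346964-102347213: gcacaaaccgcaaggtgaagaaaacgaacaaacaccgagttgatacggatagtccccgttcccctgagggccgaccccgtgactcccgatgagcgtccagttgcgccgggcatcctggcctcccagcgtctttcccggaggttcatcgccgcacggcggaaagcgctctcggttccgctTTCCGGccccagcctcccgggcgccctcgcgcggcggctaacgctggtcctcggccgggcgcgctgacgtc
BIRC3, chr11:102317234-102317483: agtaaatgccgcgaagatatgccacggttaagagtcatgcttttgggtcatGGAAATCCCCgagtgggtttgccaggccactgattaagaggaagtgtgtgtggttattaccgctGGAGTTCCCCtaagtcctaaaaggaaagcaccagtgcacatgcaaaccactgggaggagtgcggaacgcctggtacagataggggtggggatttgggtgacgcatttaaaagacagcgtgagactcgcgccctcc

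CAGGAAGT was present in 2 of the 3 CASP8 windows, 154 to 147 and 42 to 35 bases before the start, and in no window of the other 6 members with an entry. It occurred in 2.6% of all 35116 RefSeq windows of this length. This motif was chosen after the sequences had been read, so its presence is a description only. CCGGAA, found in 14.5% of all windows, was present in windows of CASP9, FADD and BIRC2. In BIRC2 it was read on the minus strand, 71 to 66 bases before the start. The NF-kappaB motif, found in 9.96% of all windows, occurred at 2 places in the BIRC3 window and at 1 place in 1 of the 4 CFLAR windows. No binding was measured here.

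The initiator caspases of the death receptors were the members that changed most. CASP8 (ENSG00000064012.21, chromosome 2, 201233443 to 201287711, plus strand, GENCODE 29 on GRCh38) encodes the apical caspase of the receptor complex. It had 1.33 and 1.44 FPKM in the controls and 2.20 and 2.21 FPKM in the ETS1 libraries, from 366 and 434 against 861 and 852 reads. Both ETS1 libraries were above both controls, by far more than replicates differed. The group means were 1.39 ± 0.0796 and 2.21 ± 0.00461 FPKM (SD, n = 2 each), and their ratio was 1.59. CASP8 rose by 0.43 on the log2(FPKM + 1) scale (SE 0.056, limma with Benjamini-Hochberg adjustment over 14306 genes, adjusted p = 0.00322). Adding 1 FPKM before taking logarithms understates the change of a gene this low, and limma's voom on the recovered reads, chosen after seeing the data, gave 1.59-fold with a 95% interval from 1.42 to 1.79 (adjusted p = 1.6e-05). That fit called 58.6% of its genes, 31.5% as higher. A ratio at least this far from 1 was found for 9.58% of the tested genes.

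CASP10 (ENSG00000003400.14, chromosome 2, 201182881 to 201229406, plus strand) encodes the close relative of caspase-8 that enters the same complex. It had 0.433 and 0.452 FPKM in the controls and 1.32 and 1.28 FPKM in the ETS1 libraries, from 133 and 152 against 576 and 550 reads. The groups stood clearly apart, and the controls were under 0.5 FPKM. The means were 0.443 ± 0.0139 and 1.30 ± 0.0301 FPKM (SD, n = 2 each), and their ratio was 2.93. With a mean of 0.871 FPKM over the 4 libraries CASP10 was under the minimum of 1 FPKM set for the main test, so it was not among the tested genes. With no filter on low values, limma gave CASP10 a log2(FPKM + 1) change of 0.67 (SE 0.056, adjusted p = 0.0115), in a fit that called 19.6% of 35055 genes, 10.3% as higher. Voom on recovered reads gave 2.93-fold, with a 95% interval from 2.47 to 3.47 (adjusted p = 4.9e-07). In the authors' deposited table, which calls 51.2% of its genes and 25.3% as higher, CASP10 has a log2 fold change of 1.50 (adjusted p = 3.7e-19) and CASP8 one of 0.61 (adjusted p = 3.2e-07). Apart from BIRC3, added to the voom fit, that fit and the authors' table hold genes with a mean of at least 0.5 FPKM, a minimum that CASP10 passed only through the ETS1 libraries, so their values for CASP10 are a description.

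**Figure D1:**
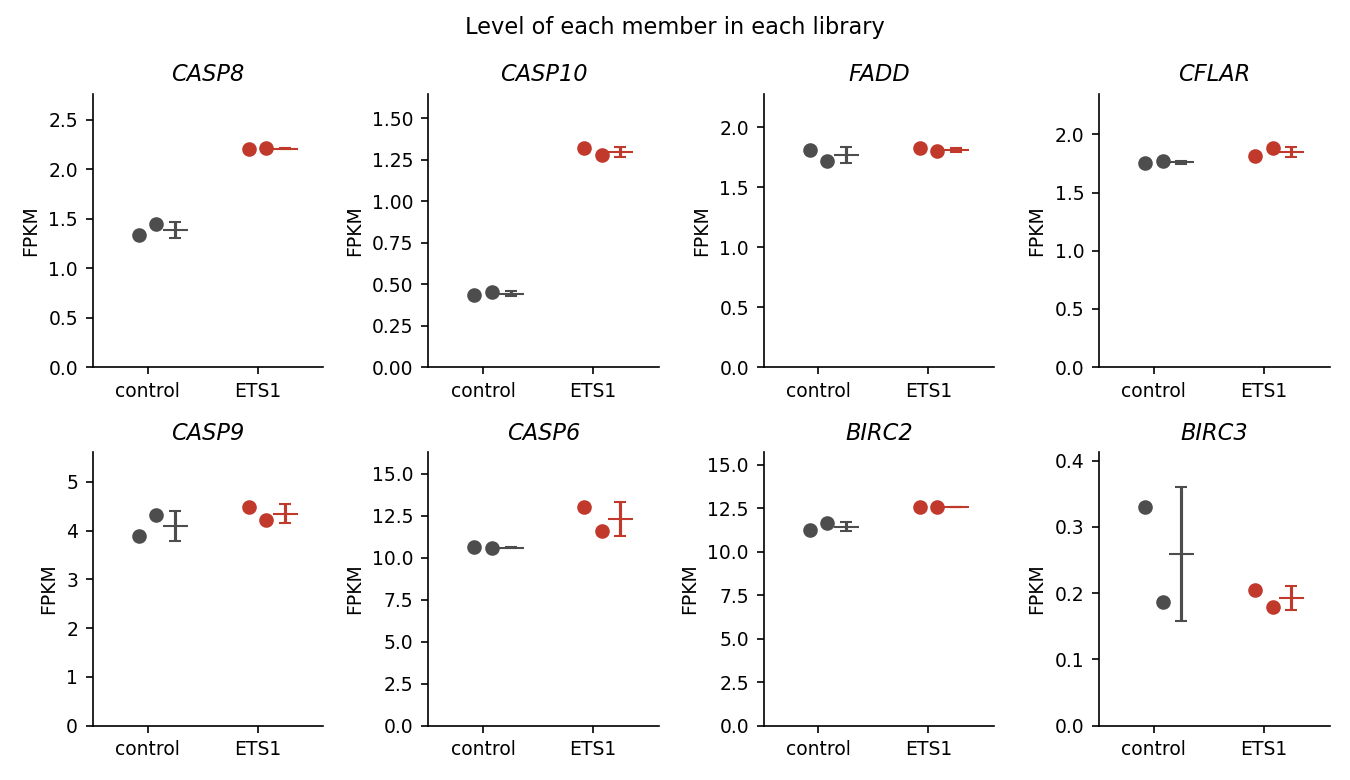
FPKM of each of the 8 members in the 2 control (grey) and 2 ETS1 (red) libraries, 1 point per library, with the group mean and SD beside the points. CASP8 and CASP10 separate widely between the groups, with ETS1 values of 2.20 and 2.21 against 1.33 and 1.44 FPKM for CASP8, while the points of FADD, CASP9 and BIRC3 overlap between groups.

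The partners of these caspases at the receptor did not pass the test. FADD (ENSG00000168040.4, chromosome 11, 70203163 to 70207390, plus strand), the adaptor, had 1.81 and 1.72 FPKM in the controls and 1.83 and 1.80 FPKM in the ETS1 libraries. These values overlapped between the groups. The log2(FPKM + 1) change of FADD was 0.025 (SE 0.054, limma adjusted p = 0.712). FADD rests on 135 to 193 reads per library, and its voom interval ran from 0.843-fold to 1.26-fold, so a change of the size seen for CASP8 lay outside it.

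CFLAR (ENSG00000003402.19, chromosome 2, 201116104 to 201176687, plus strand), the regulator of caspase-8, had 1.75 and 1.77 FPKM in the controls and 1.82 and 1.88 FPKM in the ETS1 libraries. Both ETS1 values were above both controls, by little. The log2(FPKM + 1) change was 0.045 (SE 0.052, limma adjusted p = 0.492), and the voom interval ran from 0.980-fold to 1.13-fold. CFLAR has many annotated transcripts (25 in GENCODE 29), and the table gives 1 value for all of them, so its long and short forms were not told apart. The length by which its reads were divided came out as 22671 bases, 1.55 times its longest annotated transcript, and for CASP8 as 6841 bases, 2.33 times its longest. A trend of change with gene length, removed as an alternative chosen after seeing the data, put CFLAR at -0.16 (limma adjusted p = 0.0491).

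The levels of these partners were also set against CASP8 within each library. FADD and CFLAR themselves did not pass the test, so these ratios restate the change of their denominator. The CFLAR to CASP8 ratio of FPKM was 1.32 and 1.23 in the controls and 0.824 and 0.851 in the ETS1 libraries, a difference of -34.2% between the means. By recovered reads, with no division by length, the same ratio was 4.36 and 4.07 against 2.73 and 2.82. So whether CFLAR RNA outnumbered CASP8 RNA depended on the lengths used. The relative difference between the groups cannot depend on them, since a gene's length is the same in every library. The FADD to CASP8 ratio went from 1.36 and 1.19 to 0.828 and 0.815. The CASP10 to CASP8 ratio went from 0.325 and 0.314 to 0.599 and 0.578, which is 1.84-fold higher. For these 3 ratios the groups did not overlap. The two-sided exact permutation p was 0.33 for each, the smallest that 6 arrangements of the libraries allow, and 0.444 after adjustment over the 4 ratios examined, so none passed.

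**Figure D2:**
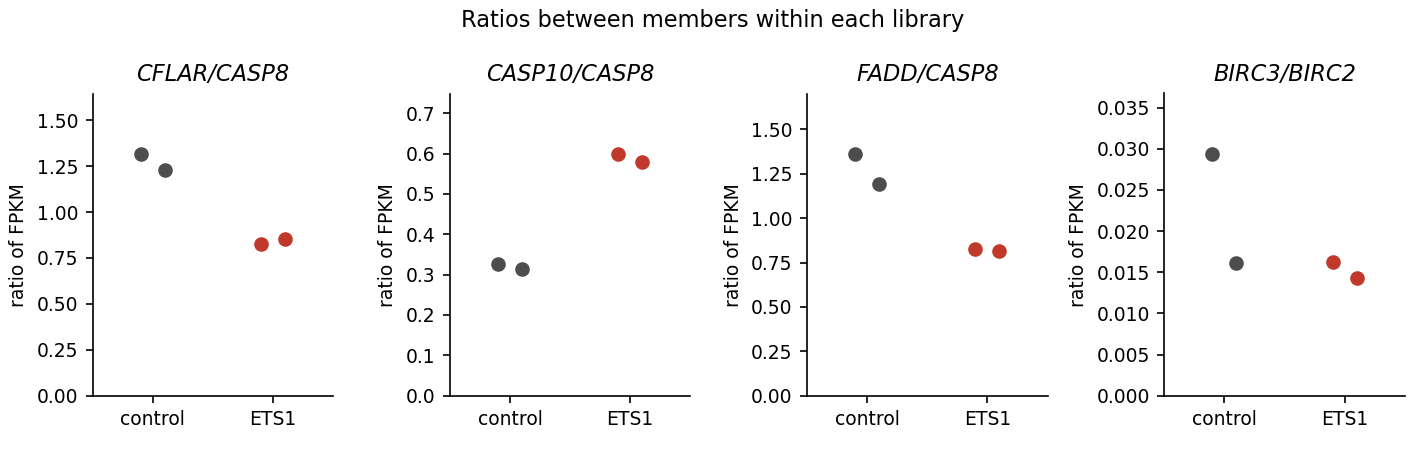
Ratio of FPKM between pairs of members within each library, 1 point per library, controls in grey and ETS1 libraries in red. CFLAR/CASP8 and FADD/CASP8 are lower and CASP10/CASP8 higher in both ETS1 libraries, while BIRC3/BIRC2 has a control point at 0.0294 far above the other 3.

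CFLAR, CASP10 and CASP8 lie side by side on chromosome 2, transcribed in the same direction within 171607 bases. The gap from CFLAR to CASP10 is 6194 bases and that from CASP10 to CASP8 is 4037 bases. Along this stretch the FPKM ratios were 1.05, 2.93 and 1.59. Of the 5 tested protein-coding genes on either side, 4 were called higher and 2 lower, with a median log2(FPKM + 1) change of 0.080, where 59.1% of all tested genes were called. On the CFLAR side NDUFB3, a respiratory chain subunit, fell by 0.28, and beyond it FAM126B rose by 0.28. On the CASP8 side TRAK2, a mitochondrial transport adaptor, rose by 0.33 and STRADB by 0.15. With the median of the 25 tested genes on either side removed, CASP8 kept its call.

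**Figure D3:**
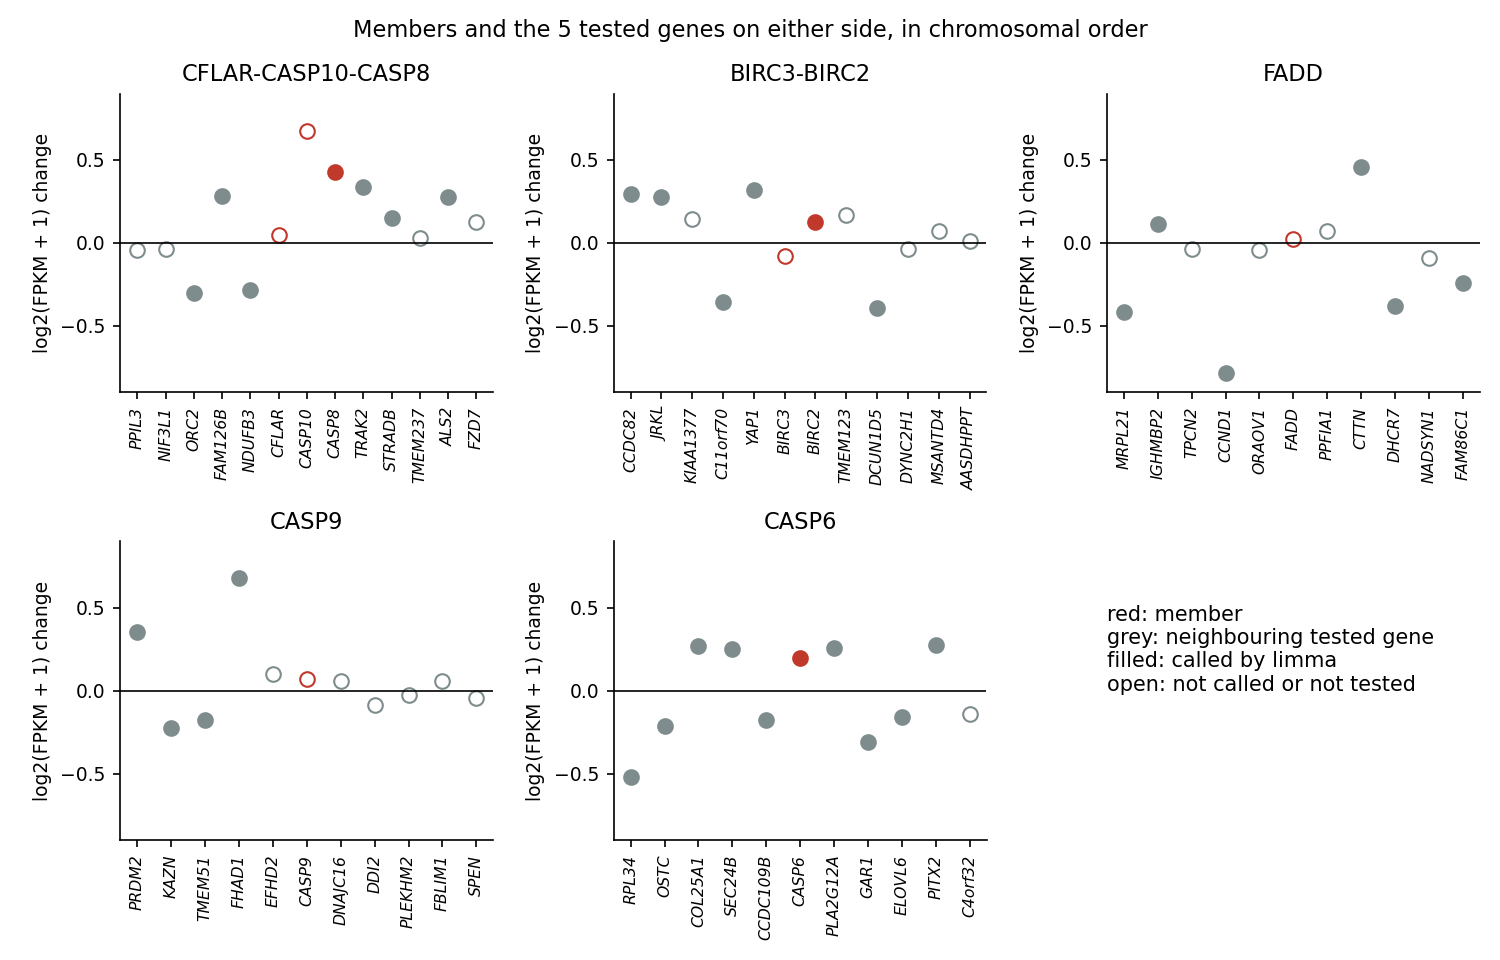
Change on the log2(FPKM + 1) scale of the members (red) and of the 5 tested protein-coding genes on either side (grey), in chromosomal order, for 5 places in the genome, filled where limma called the gene and open where it did not or, for CASP10 and BIRC3, where the gene was not tested. CASP10 (0.67) and CASP8 (0.43) are the highest points of their panel, and their neighbour CFLAR (0.045) is near 0. FHAD1 and COL25A1, in other panels, reached the minimum mean of 1 FPKM only through the ETS1 libraries.

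Of the caspases outside the receptor complex, CASP9 did not pass and CASP6 passed narrowly. CASP9 (ENSG00000132906.17, chromosome 1, 15490832 to 15526534, minus strand), the initiator of the mitochondrial route, had 3.88 and 4.32 FPKM in the controls and 4.49 and 4.21 FPKM in the ETS1 libraries. The groups overlapped. Its log2(FPKM + 1) change was 0.070 (SE 0.059, limma adjusted p = 0.355), and the voom interval ran from 0.960-fold to 1.17-fold.

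CASP6 (ENSG00000138794.9, chromosome 4, 109688622 to 109703583, minus strand), an executioner that cleaves nuclear lamins, had 10.6 FPKM in both controls and 13.0 and 11.6 FPKM in the ETS1 libraries. Both ETS1 libraries were higher, but they differed from each other by more than the controls did. The mean ratio was 1.16 and the log2(FPKM + 1) change 0.19 (SE 0.059, limma adjusted p = 0.0397). This call was lost without ETS1 replicate 1 (adjusted p = 0.129), control replicate 1 (0.0883) or control replicate 2 (0.0982), and in the authors' deposited table, where the adjusted p is 0.0813. It was also lost with the median change of chromosomal neighbours removed (0.049, adjusted p = 0.52), with no filter (0.134), with median-of-ratios scaling (0.0542) and with no intensity trend (0.0548). CASP6 also overlaps MCUB on the opposite strand by 105 bases. MCUB, listed under its older name CCDC109B, was at 10.4 to 11.98 FPKM and fell by 0.18 on the log2 scale, and the use of strand in counting is not given in the sources used here.

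The inhibitors differed mainly in level. BIRC2 (ENSG00000110330.8, chromosome 11, 102347211 to 102378670, plus strand) had the highest mean FPKM of the members in both groups. It had 11.2 and 11.6 FPKM in the controls and 12.6 FPKM in both ETS1 libraries, where CASP6 (13.0 and 11.6 FPKM) overlapped it. The BIRC2 groups did not overlap, and the difference was small, with a ratio of 1.10. BIRC2 rose by 0.13 on the log2(FPKM + 1) scale (SE 0.032, limma adjusted p = 0.0238). The call was lost without ETS1 replicate 1 (adjusted p = 0.116), ETS1 replicate 2 (0.117) or control replicate 1 (0.0713), with the median change of chromosomal neighbours removed (0.036, adjusted p = 0.481), with the length trend removed (0.10, adjusted p = 0.0523), and in the authors' deposited table (adjusted p of 0.117).

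BIRC3 (ENSG00000023445.13, chromosome 11, 102317450 to 102339403, plus strand) starts upstream of BIRC2, 7808 bases separate the pair, and it had the lowest FPKM of the members. It had 0.330 and 0.187 FPKM in the controls and 0.205 and 0.179 FPKM in the ETS1 libraries, from 100 and 62 against 88 and 76 reads. Control replicate 1 stood above the other 3 libraries, which lay close together, and the groups overlapped. BIRC3 was under the minimum for the main test. With no filter limma gave it an adjusted p of 0.517, and the voom interval ran from 0.532-fold to 1.145-fold. The BIRC3 to BIRC2 ratio of FPKM was 0.0294 and 0.0161 in the controls and 0.0163 and 0.0143 in the ETS1 libraries (exact permutation p = 0.667, adjusted 0.667). Without control replicate 1 the change of the mean ratio shrank from 0.671-fold to 0.947-fold.

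Of the 8 members, 6 were tested, 3 were called higher (CASP8, CASP6 and BIRC2) and 0 lower by limma. All 6 tested members had a positive log2(FPKM + 1) change in this fit, so its lower count would be 0 at any threshold. Over all tested genes 59.1% were called, 30.7% as higher and 28.4% as lower. A share of 3 in 6 is close to that background and is no result about the group. The groups did not overlap for 4 of the 6 tested members (CASP8, CFLAR, CASP6 and BIRC2), where 82.0% of the tested genes did not overlap. The median log2(FPKM + 1) change of the 6 tested members was 0.098, against 0.016 over all tested genes.

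By FPKM the order of levels in the controls was BIRC2, CASP6, CASP9, FADD, CFLAR, CASP8, CASP10 and BIRC3. Only FADD and CFLAR had overlapping ranges among neighbours in that order. In the ETS1 libraries CASP8 stood above CFLAR and FADD, and the means of CFLAR and FADD changed places. There BIRC2 and CASP6 overlapped, as did CFLAR and FADD, and the other neighbours in the order did not. These places depend on the length used. Per length of the longest annotated transcript, chosen after seeing the data, CASP8 in the controls would stand at 3.24 FPKM, above CFLAR at 2.72 and FADD at 1.78, and CASP6 would stand above BIRC2 in both groups. CASP8, FADD and CFLAR lay near percentile 15 of the tested genes by mean level (14.9, 14.8 and 15.1), while BIRC2 and CASP6 were at 69.2 and 67.8.

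**Figure D4:**
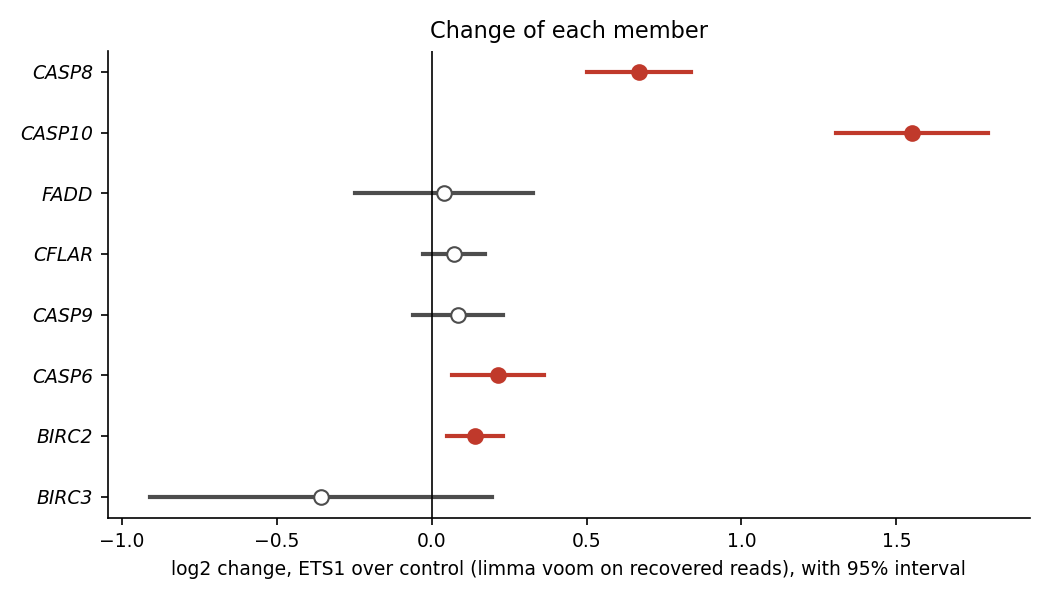
Log2 change of each member in the ETS1 libraries over the controls from limma's voom on recovered reads, with its 95% interval, filled where the adjusted p was under 0.05. The value of CASP10, which entered this fit only through the ETS1 libraries, is a description, and the intervals of FADD, CFLAR, CASP9 and BIRC3 span 0.

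The other genes of the pathway were compared by lists drawn up by role. CASP2, an initiator caspase activated on the PIDD1 and CRADD complex, had 11.7 and 11.4 FPKM in the controls and 10.99 and 11.1 FPKM in the ETS1 libraries. It did not pass, with a log2(FPKM + 1) change of -0.056 (limma adjusted p = 0.184). The inflammatory and epidermal caspases CASP1, CASP4, CASP5, CASP12 and CASP14 were listed at 0 or at most at 0.0141 FPKM in each library. The necroptosis genes RIPK3, MLKL and ZBP1 were at most at 0.0887 FPKM.

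On the mitochondrial route, APAF1, the scaffold that activates CASP9, had 3.24 and 3.26 FPKM in the controls and 4.83 and 4.89 FPKM in the ETS1 libraries. APAF1 rose by 0.46 on the log2 scale (limma adjusted p = 0.00104). Of the 5 tested genes of that list 1 was called higher and 2 lower, where 30.7% and 28.4% of all tested genes were. AIFM1 fell by 0.30 and ENDOG by 0.41, both mitochondrial proteins released in cell death, while CYCS (0.091, adjusted p = 0.341) and HTRA2 (-0.027, adjusted p = 0.619) did not pass. Of the other inhibitor-of-apoptosis genes, XIAP, the direct caspase inhibitor, rose by 0.20 and the giant family member BIRC6 by 0.23, which makes 2 of 3 tested. BIRC5 (survivin) was at 26.1 ± 1.20 and 26.0 ± 0.290 FPKM (SD, n = 2 each) and did not pass. In the NIK axis, which the cIAPs restrain, RELB rose by 0.17 (limma adjusted p = 0.0454), and MAP3K14, TRAF3 and NFKB2 did not pass, which makes 1 of 4. The RELB call was lost in the authors' deposited DESeq2 values (adjusted p = 0.140).

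Among adaptors and regulators of the receptor complexes, 17 were tested, 7 were called higher and 4 lower, with a median of 0.12, where 59.1% of all tested genes were called in either direction. TNFAIP3 (A20), a ubiquitin editor and NF-kappaB target, went from 2.72 and 2.73 FPKM to 7.41 and 7.31 FPKM, a log2 change of 1.16 (limma adjusted p = 0.000417). The deubiquitinases CYLD and OTULIN (listed as FAM105B) rose by 0.33 and 0.31, and RIPK1, the kinase that BIRC2 ubiquitinates, rose by 0.28. SHARPIN, a subunit of the linear ubiquitin ligase, fell by 0.36, PEA15, a death effector domain protein, fell by 0.23, and TRAF2, which carries the cIAPs to the receptors, fell by 0.23. CASP8AP2 (FLASH) rose by 0.18.

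Upstream, 8 of 12 death receptors and ligands were tested, 2 were called higher and 3 lower. Of these 5, TNFRSF10A, TNFRSF10C and TNFRSF10D had a mean of at least 1 FPKM only through the group where they are high, so their values are a description and the count supports nothing about the list. The TRAIL receptors differed in direction. TNFRSF10A went from 2.47 and 2.48 to 0.243 and 0.234 FPKM, TNFRSF10B from 48.8 and 49.2 to 35.1 and 34.3 FPKM. Of the decoy receptors, TNFRSF10D went from 0.322 and 0.301 to 6.77 and 6.83 FPKM, while TNFRSF10C went from 1.24 and 1.21 to 0.844 and 0.801 FPKM. FAS did not pass (0.041, adjusted p = 0.426). TNF itself was at 0.266 and 0.176 FPKM in the controls and at 0.582 and 0.569 FPKM in the ETS1 libraries, under the minimum for the test, and FASLG and TNFSF10 (TRAIL) were at or near 0. Of the caspase substrates, ROCK1 rose by 0.48, while BID fell by 0.40, DFFA by 0.18 and PARP1 by 0.11. BID is the protein through which caspase-8 engages the mitochondria, and it went from 10.2 and 10.5 to 7.47 and 7.69 FPKM. Over all 9 lists 45 of 62 genes were tested, 14 were called higher and 12 lower, with a median of 0.041 against 0.016 over all tested genes. Over all tested genes 30.7% were called higher and 28.4% lower, so these counts are close to the background.

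**Figure D5:**
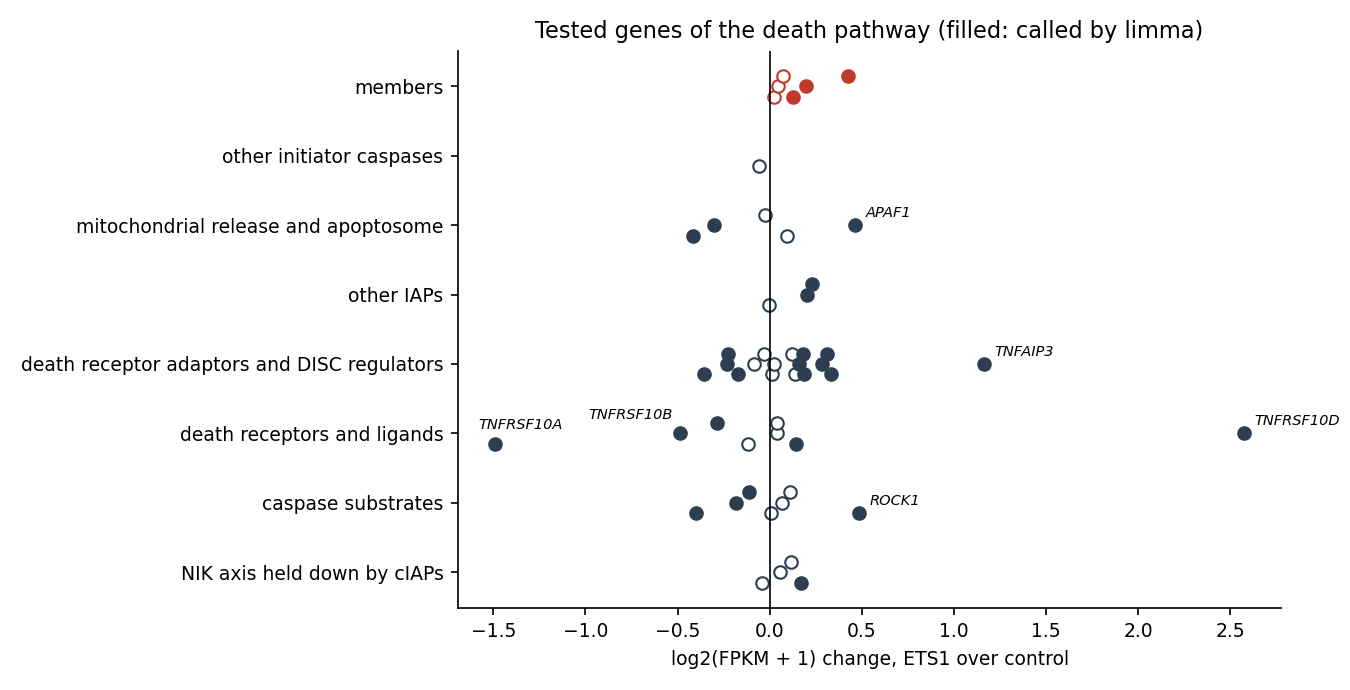
Log2(FPKM + 1) change of each tested gene, ETS1 over control, for the members (red) and the pathway lists with a tested gene (dark), filled where limma called the gene. CASP2 (-0.056) sits close to 0, while TNFAIP3 (1.16), TNFRSF10A (-1.49) and TNFRSF10D (2.57) lie far from it.

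The pattern most like that of CASP10, by Euclidean distance between log2(FPKM + 1) profiles centred over the 4 libraries, was that of LAMB2, a laminin chain (distance 0.00904). ATF3, a stress-induced transcription factor, followed at 0.0221 and FHAD1 at 0.0243. The group mean of LAMB2 went from 17.7 to 28.7 FPKM and that of ATF3 from 44.4 to 72.3 FPKM. FHAD1, also a neighbour of CASP9, had 0.555 and 0.545 FPKM in the controls and 1.49 and 1.47 FPKM in the ETS1 libraries. It reached the minimum mean of 1 FPKM only through the ETS1 libraries, so its values are a description. With 1 FPKM added before the logarithm, the LAMB2 and ATF3 ratios of 1.62 and 1.63 match the larger CASP10 ratio on this scale. FHAD1, at 2.69, was nearer to CASP10 in ratio.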

How the data were processed

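The labels name 2 control and 2 ETS1 libraries of total RNA. Per the submitters' processing notes, HISAT2, HTSeq and DESeq2 were used on hg38, and versions, annotation and strand use are not given in the sources used here. The authors deposited FPKM for 55764 gene names. Their comparison table repeats these values and adds a mean normalized count (a signal averaged over libraries), a log2 fold change with its SE, and a p-value with its adjusted form, per the file headers.

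FPKM was taken as log2(FPKM + 1) with a minimum mean of 1 FPKM, which kept 14306 genes, and fitted with limma 3.58.1 in R 4.3.3 (group term, intensity trend, 2 residual and 2.84 prior degrees of freedom). All p-values are two-sided, adjusted by Benjamini and Hochberg's method across the tested genes, and called at 0.05. Ratios had an exact permutation test.

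Reads were recovered because a gene's FPKM are whole multiples of 1 step. In this way 99.6% of the 16652 genes that the authors compared were recovered, and 100.0% of their values lay within 0.05 of a whole number. The search accepted only near-whole values, so the second share was fixed in advance and is no check on the reads. For BIRC3, outside that table, the common factor came from the exon length in GENCODE 29. Recovered reads were used for depth and for voom, chosen after seeing the data. Reads of BIRC3 depend on that length. Intervals from voom cover the spread between these libraries.

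The fit was tested on simulated data. Alternatives were another pseudocount, other filters, other scalings, a replicate block, no intensity trend, a threshold of 0.01, the authors' values, removal of a local chromosomal median or a length trend, and leaving out each library. The members and lists were chosen with earlier results of these data known. The genes named are the members, ETS1, up to 3 genes a list with the largest change or named by role, genes next to a member, and the 3 genes most like the member with the largest change. Others were named after their values were seen. No protein sequence was used here. Some genes of the pathway are not reported here.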

Additional observations from a re-analysis of the deposited data

How the results depend on the processing

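CASP8 was called higher under all 16 alternatives, with a log2 change from 0.34 to 0.67, while CASP10 could be tested under 8. Of these, 7 use a minimum mean of 0.5 FPKM that CASP10 passed only through the ETS1 libraries and say nothing of stability, and with no filter its adjusted p was 0.0115. CASP6 kept its call under 8 of 17 alternatives and BIRC2 under 9 of 17. The number of members called higher, 3, fell to 1 at a threshold of 0.01 and with the local chromosomal median removed, and ran from 1 to 2 when single libraries were left out. The number called lower went from 0 to 1 with the length trend removed. CFLAR changed sign with the local chromosomal median removed (-0.015) and with the length trend removed (-0.16), and FADD under quantile normalization (-0.012). The cause was not tested. Over all genes the 8451 calls became 5562 at a mean of at least 5 FPKM, where fewer genes were tested, and 5386 at a threshold of 0.01.

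With the replicate number as a block there were 7283 calls over all genes and 2 members called higher, BIRC2 having an adjusted p of 0.0586. Same-numbered libraries did not deviate together (correlation -0.0456 over genes). With 2 libraries a group this cannot decide whether the numbers pair the samples. For the 4 ratios only single libraries were left out, and no ratio changed direction. Recovered reads give the same fold by construction. Depth limits BIRC3 and FADD, with at most 193 reads in a library, and CASP10 in the controls, with 133 and 152 reads.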
